A study of Mus musculus with 6 samples.

Results

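The proteasome genes were examined in ATAC-seq data, an assay that reads accessible DNA from where the Tn5 transposase can insert adapters, of freshly isolated muscle stem cells (MuSCs) from control and Taf4a sKO mice. Members were the peaks of the table that were annotated to a protein-coding gene whose symbol begins with Psm, a letter from a to g and a digit. The rule took 63 of the 75412 peaks, annotated to 44 genes, and it used no measured value. Of these genes 28 had 1 peak, 13 had 2 peaks and 3 had 3 peaks, so peaks of the same gene are not independent. Psmc3ip, which acts in meiotic recombination, and Psme3ip1, which encodes a protein that binds the activator Psme3, match the symbol rule but do not encode proteasome subunits.

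The control group held 3 libraries and the Taf4a sKO group held 3 libraries, labelled as biological replicates, all from C57BL/6 mice. Taf4a sKO mice carry the Pax7CreERT driver, which limits recombination to Pax7-expressing cells after tamoxifen, together with loxP-flanked Taf4a alleles. The controls were littermates with the floxed alleles with or without the Cre allele, and which of these kinds served for ATAC-seq was not given in the sources used here. The mice were adult, and MuSCs were sorted by surface markers or a Pax7 reporter before the assay. The paper reports that purity of the sorted cells was incomplete on reanalysis, so other cells may be among them.

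The proteasome degrades ubiquitin-tagged proteins. Its barrel-shaped core particle is built from alpha rings, which gate the entry, and beta rings, which carry the proteolytic sites, and it is capped by a regulatory particle whose ATPases unfold the substrate while other subunits bind and remove ubiquitin. Immunoproteasome subunits replace the standard catalytic beta subunits after interferon signalling, activators open the gate without ATP, and dedicated chaperones assemble the rings. Most subunit genes have housekeeping promoters, and the factor Nfe2l1 induces them together when proteasome activity falls.

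In brief, the promoters of proteasome genes were strongly accessible in MuSCs of both genotypes, and 2 of the 38 promoter peaks (5.26%) passed the test for a difference, where 15.7% of all protein-coding promoter peaks did. Peaks farther from the start sites were weaker and varied more, and they held 11 of the 13 peaks that passed. These 11 were 44.0% of the 25 distal peaks, where 40.0% of distal peaks of protein-coding genes were called in either direction. By direction, 3 of the 25 were called higher (12%, against 26.0%) and 8 lower (32%, against 14.0%). Among the 63 peaks 4 were called higher and 9 lower, where 28.0% and 13.9% of all 75384 tested peaks were. Without control replicate 3 these counts were 20 and 8 (28502 and 9731 in the whole table). With TMM factors, another scaling of the libraries, they were 5 and 18 (19125 and 16803 in the whole table). The largest fall was at an exon of the beta ring gene Psmb3, and the largest rise lay in an intron of the alpha ring gene Psma6.

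Values are read counts per peak that the authors scaled for sequencing depth and rounded, called normalised counts below. The total over all peaks was 37722015, 35226223 and 42803315 in control replicates 1 to 3 and 44311913, 41661725 and 41948821 in Taf4a sKO replicates 1 to 3. A peak was called higher or lower where limma on log2(value + 1) gave a Benjamini-Hochberg adjusted p under 0.05 over the 75384 peaks with a mean above 10, and all 63 member peaks passed that minimum. Gained and lost peaks were those whose group means differed by a log2 ratio beyond 1 in either direction. A peak was termed a promoter peak where its centre lay within 1000 bp of the annotated start site of its gene, and distal otherwise. Coordinates are on mm10, and a fold change is on the log2(value + 1) scale. In bulk cells, fewer accessible cells and less accessibility per cell cannot be told apart.

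The genotype labels were checked at the targeted gene, listed as Taf4, in the peak over exon 12 (chr2:179922849-179923263), which lies in the floxed part. Its normalised counts were 65, 78 and 137 in control and 44, 22 and 25 in Taf4a sKO libraries. Every Taf4a sKO value was below every control value, with a log2 change of -1.58 (standard error 0.30, limma adjusted p = 3.4e-04). Outside the floxed exons, the peak over exon 7 (chr2:179931701-179932202) had 253, 249 and 302 in control and 140, 145 and 165 in Taf4a sKO libraries (log2 change -0.83, adjusted p = 1.4e-04). The peak over exon 1, the strongest of the 3 over Taf4 exons, had 2305, 1998 and 2375 in control and 2095, 2124 and 2104 in Taf4a sKO libraries, with overlap (log2 change -0.07, adjusted p = 0.59). The labelled cell type was checked on marker genes. Each of the 9 MuSC markers had a promoter peak, with Pax7 at a mean normalised count of 3404, Cxcr4 at 2801 and Myf5 at 2111. Of these 9 promoters limma called that of Vcam1 higher (log2 change 0.35, adjusted p = 0.018) and that of Pax7 lower (-0.32, adjusted p = 0.030). With TMM factors those of Cd34 (-0.37, adjusted p = 0.0029), Myf5 (-0.34, adjusted p = 2.7e-04) and Sdc4 (-0.16, adjusted p = 0.018) were also called lower. Summed over the peak nearest each MuSC marker's start, the values were 16629, 13831 and 17206 in control and 15591, 15165 and 14973 in Taf4a sKO libraries, with overlap. Of the haematopoietic markers, Ptprc, Itgam and Cd3e had no annotated peak, and the Cd68 promoter had a mean of 184.5. Of the 4 fibro-adipogenic markers, Ly6a had no peak, and among the peaks nearest each start the Col1a1 promoter was the strongest at 1526. Summed over the peak nearest the start site of each fibro-adipogenic gene, the values were 1388, 1159 and 1489 in control and 2151, 2016 and 1988 in Taf4a sKO libraries, without overlap, and 5 of the 11 peaks of this list were called higher and 1 lower. The corresponding sums for 4 endothelial markers, with Tek as the strongest at 1438, were 1514, 1312 and 1845 in control and 1993, 1992 and 1888 in Taf4a sKO libraries. Over all peaks of each list, 10 of 34 MuSC marker peaks were called higher and 5 lower (7 and 10 with TMM factors). Of 6 endothelial peaks 2 were called higher and 1 lower. The haematopoietic list had 1 of 1 lower, the myofibre list 2 of 6 lower and the Schwann list 1 of 2 higher. Of all peaks 28.0% were called higher and 13.9% lower (25.4% and 22.3% with TMM factors). The part of these markers in the results below was not tested.

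Promoter sequence is shown for 4 genes, chosen by call, function or log2 change. Each runs from 250 bases before to 50 bases after the RefSeq start site on GRCm38.p6, read 5′ to 3′ along the gene. Psme1 and Psmg3 have the promoter peaks that were called, Psmb5 encodes the chymotrypsin-like catalytic subunit, and Psmd4 encodes a ubiquitin receptor and had the lowest log2 change among the regulatory particle promoters. Capitals mark matches on either strand to 6 short motifs, namely the CCAAT box of NF-Y, the antioxidant response core TGACNNNGC bound by Nfe2l1 and Nfe2l2, the GC box GGGCGG of Sp factors, the ETS site CCGGAAGT, the TATA box TATAAA and the cyclic AMP response element TGACGTCA. It begins with the same letters as the antioxidant response core, but as spelled the pair cannot overlap.
Psme1 promoter, plus strand, chr14:55578244-55578543: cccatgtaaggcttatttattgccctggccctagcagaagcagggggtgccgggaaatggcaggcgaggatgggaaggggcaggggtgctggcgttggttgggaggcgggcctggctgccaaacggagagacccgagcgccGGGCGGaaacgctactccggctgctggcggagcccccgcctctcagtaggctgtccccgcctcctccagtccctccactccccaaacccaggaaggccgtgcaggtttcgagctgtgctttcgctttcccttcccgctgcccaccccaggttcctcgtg
Psmg3 promoter, minus strand, chr5:139826845-139827144: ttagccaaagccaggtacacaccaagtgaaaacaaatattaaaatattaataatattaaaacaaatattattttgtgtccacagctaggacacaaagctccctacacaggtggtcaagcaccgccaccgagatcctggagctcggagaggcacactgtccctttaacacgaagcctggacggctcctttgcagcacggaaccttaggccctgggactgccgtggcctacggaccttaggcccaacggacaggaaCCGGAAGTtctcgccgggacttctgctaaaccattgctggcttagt
Psmb5 promoter, minus strand, chr14:54617946-54618245: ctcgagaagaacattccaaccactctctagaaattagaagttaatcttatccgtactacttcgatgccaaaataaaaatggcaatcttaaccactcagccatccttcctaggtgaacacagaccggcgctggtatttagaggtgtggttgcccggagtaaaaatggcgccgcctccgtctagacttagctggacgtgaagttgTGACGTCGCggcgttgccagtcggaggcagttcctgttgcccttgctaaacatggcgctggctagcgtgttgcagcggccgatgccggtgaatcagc
Psmd4 promoter, minus strand, chr3:95042565-95042864: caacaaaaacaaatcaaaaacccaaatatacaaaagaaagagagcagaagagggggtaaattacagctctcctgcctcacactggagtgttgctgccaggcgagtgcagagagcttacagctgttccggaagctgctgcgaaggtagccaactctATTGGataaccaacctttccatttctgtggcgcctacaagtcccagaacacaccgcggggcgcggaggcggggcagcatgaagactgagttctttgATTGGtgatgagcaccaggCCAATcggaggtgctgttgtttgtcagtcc
The Psme1 promoter held 1 GC box, the Psmg3 promoter 1 ETS site, the Psmb5 promoter 1 antioxidant response core and the Psmd4 promoter 3 CCAAT boxes.

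Among all proteasome genes, 37 RefSeq promoters, 2 of them of Psme2, had their start site inside a member peak. The ETS site was found in 8 of these 37 promoters (21.6%), against 3.89% of all 32851 RefSeq promoters and 7.67% of the 14546 promoters whose start lay inside any peak of the table. The 8 promoters were those of Psmc1, Psmc2, Psmd6, Psmd12, Psmd13, Psme3, Psme4 and Psmg3. The antioxidant response core was found in 5 promoters (13.5%), those of Psmb5, Psmb6, Psmc6, Psmd12 and Psme4, against 12.4% of all promoters and 14.4% of those in a peak. CCAAT occurred in 12 (32.4%, against 37.4% and 36.8%), the GC box in 20 (54.1%, against 35.7% and 65.8%) and TATAAA in 4 (10.8%, against 13.6% and 6.17%). TGACGTCA was not among the letters of any of the 37, against 1.79% and 3.22%. The median GC content was 57.3% in the proteasome promoters, 52.7% in all promoters and 62.0% in promoters in a peak, so the 3 sets differ in base composition. Over the promoters with the ETS site the median log2 change of the member peak was -0.02, and over the 29 without it 0.08. The corresponding medians were 0.11 with and 0.07 without the antioxidant response core, and 0.06 with and 0.08 without CCAAT. These are descriptions of small sets, without a test.

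**Figure D1:**
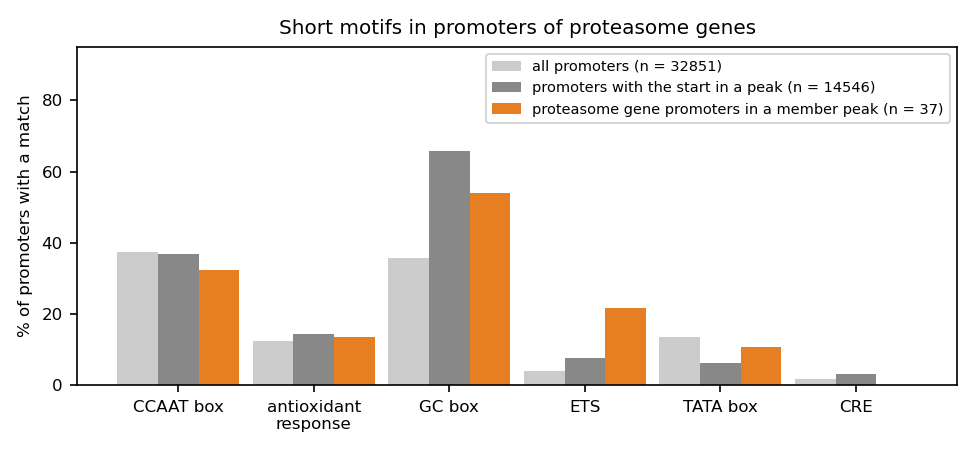
Share of promoters, in percent, with at least 1 match to each of 6 short motifs on either strand in the 300 bases around the RefSeq start. Bars stand for all promoters, promoters whose start lies in a peak, and the 37 proteasome promoters, in which the ETS site reached 21.6% against 7.67% of promoters in a peak.

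The 38 promoter peaks differed in strength, with mean values from 432.7 to 4662. Their median mean value was 1524 and their median width 1023 bp, against 1267 and 1116 bp for the 12049 promoter peaks of protein-coding genes. Of the 38, 33 contained a RefSeq start site of their gene and the other 5 belong to genes without a promoter in the sequence table. The highest mean values were at Psme2 (4662, chr14:55590672-55592070), whose peak also holds the start of Rnf31, at Psme3ip1 (3052, chr8:94601231-94602745), shared with Rspry1, and at Psmb3 (2626, chr11:97702439-97703678). The lowest were at the core assembly chaperone gene Psmg3 (432.7), at Psmd6 (859), a regulatory particle subunit, and at Psmb5 (908). Per kb of peak, the mean value was highest for Psme2 (3332), Psma3 (2433) and Psmc6 (2384).

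Of the 38 promoter peaks, 1 was called higher and 1 lower. Of protein-coding promoter peaks 10% were called higher and 5.67% lower, 15.7% in either direction. Every Taf4a sKO value lay above every control value in 8 of the 38, and below in 2, against 18.8% and 10.9% of protein-coding promoter peaks. The log2 changes ran from -0.33 to 0.27, and 31 of 38 were above 0. Their median was 0.08, beside 0.06 over protein-coding promoter peaks, and it became -0.04 and -0.05 respectively when TMM factors replaced the deposited scaling. Leaving out control replicate 2 made the median of the 38 peaks 0.0043, and leaving out control replicate 3 made it 0.14. Under TMM factors, which moved the median of all peaks from 0.11 to -0.01, 2 promoter peaks were called higher (Psma5 and Psme1) and 5 lower (Psmd4, Psme3, Psme4, Psmg1 and Psmg3), where 9.94% and 22.5% of protein-coding promoter peaks were called.

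The promoter values followed the libraries. Summed over the 38 peaks they came to 61759, 56776 and 67931 in control and to 67579, 65059 and 64119 in Taf4a sKO libraries, so that control replicate 3 had the largest sum of all. Control replicate 3 was the highest control in 38 of 38 promoter peaks and control replicate 2 the lowest in 37. As a share of all values of the library, the same sums were 0.164%, 0.161% and 0.159% in control and 0.153%, 0.156% and 0.153% in Taf4a sKO libraries, with no overlap. Over the 63 members the counts of calls depended on control replicate 3. Without it, 20 peaks were called higher in place of 4, and 8 lower in place of 9. The share of all peaks called higher went from 28.0% to 37.8%. The median coefficient of variation between replicates was 8.56% in control and 3.94% in Taf4a sKO libraries for promoter peaks.

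**Figure D2:**
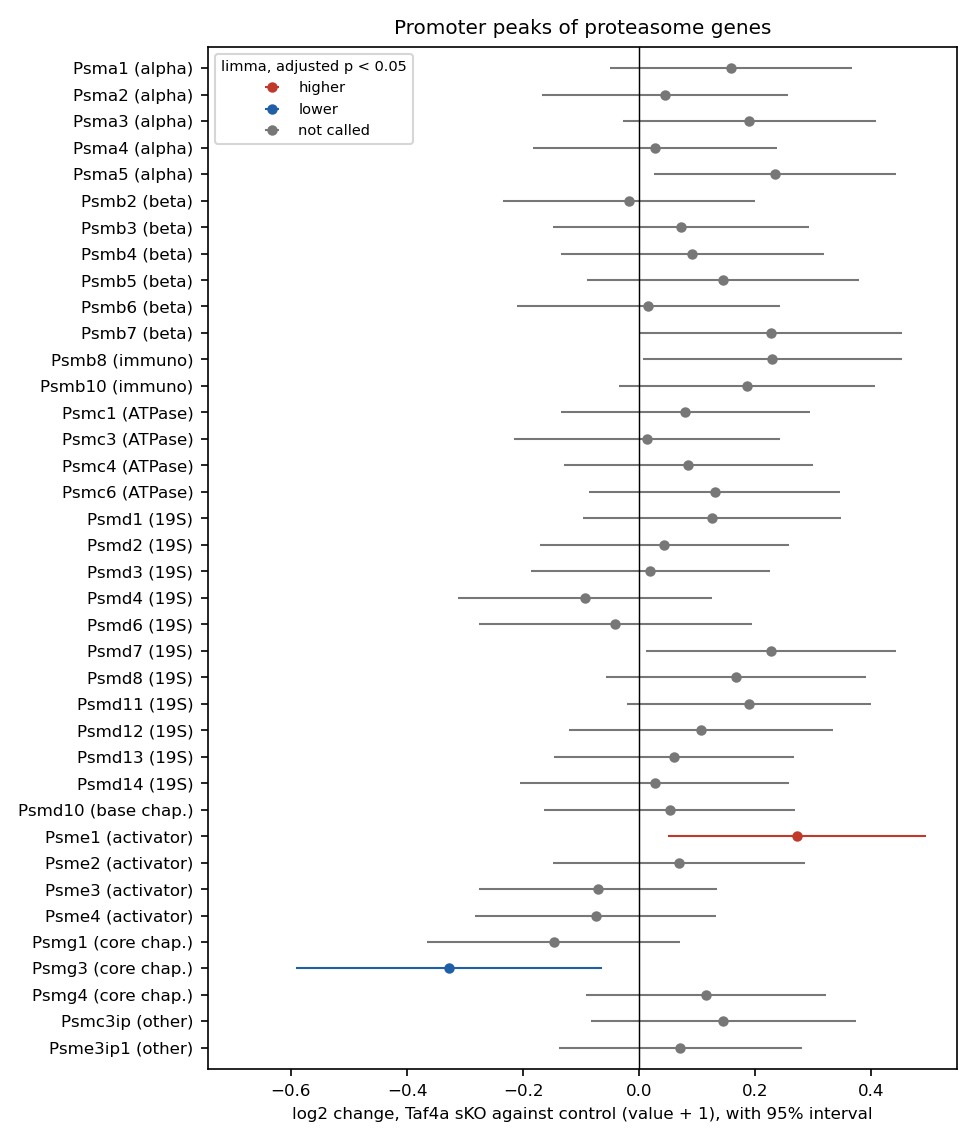
Log2 change between Taf4a sKO and control MuSCs (x axis) for the 38 promoter peaks, in order of the role of the gene (y axis), with 95% intervals from limma. All points lie between -0.33 and 0.27, and only the intervals of Psme1 and Psmg3 belong to called peaks.

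In the alpha ring, whose subunits form the outer rings of the core particle, 5 genes had a promoter peak and 0 of the 5 peaks were called by limma, with log2 changes from 0.03 to 0.23. The largest was at Psma5 (chr3:108256530-108257578), with 2006, 1982 and 2307 in control and 2565, 2458 and 2370 in Taf4a sKO libraries. These groups did not overlap, and the difference had a limma adjusted p of 0.066 (0.036 with TMM factors, at a log2 change of 0.12).

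In the beta ring, 6 promoter peaks had log2 changes from -0.02 to 0.23 and 0 were called by limma. The promoter of Psmb5 (chr14:54617429-54618427) had 820, 789 and 985 in control and 948, 965 and 942 in Taf4a sKO libraries. The third control value was the highest of the 6, so the groups overlapped (log2 change 0.14, 95% interval -0.09 to 0.38, limma adjusted p = 0.33). The promoter of Psmb6 (chr11:70524910-70525928), which encodes the caspase-like subunit, had 1166, 1020 and 1275 in control and 1209, 1148 and 1130 in Taf4a sKO libraries. Its Taf4a sKO values all fell within the control range (log2 change 0.02, interval -0.21 to 0.24, limma adjusted p = 0.92). The promoter of Psmb7 (chr2:38643345-38644452), for the trypsin-like subunit, had 913, 802 and 923 in control and 977, 1087 and 1021 in Taf4a sKO libraries. Here every Taf4a sKO value was above every control value, but the difference did not pass (log2 change 0.23, interval 0.00 to 0.45, limma adjusted p = 0.10). Without control replicate 3 the promoters of Psmb5 and Psmb7 were called higher, at log2 changes of 0.24 (adjusted p = 0.020) and 0.26 (adjusted p = 0.017).

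Among the immunoproteasome genes, the promoter of Psmb8 (chr17:34197326-34198754) had 1261, 1065 and 1330 in control and 1400, 1459 and 1409 in Taf4a sKO libraries. The groups did not overlap (log2 change 0.23, interval 0.01 to 0.45, limma adjusted p = 0.093). The promoter of Psmb10 (chr8:105936735-105938541) had 1092, 1090 and 1228 in control and 1193, 1381 and 1306 in Taf4a sKO libraries, with overlap (log2 change 0.19, limma adjusted p = 0.17). Without control replicate 3 both were called higher, at log2 changes of 0.30 for Psmb8 and 0.24 for Psmb10. Psmb9 had no member peak, because the peak over its start site was annotated to the divergent gene Tap1 and is described below. Psmb11, which encodes the catalytic subunit of the thymus, had 2 peaks classed as distal. The peak of these over its RefSeq and GENCODE start (chr14:54624757-54625813) had 335, 373 and 463 in control and 273, 323 and 332 in Taf4a sKO libraries, each lower than each control value (log2 change -0.33, limma adjusted p = 0.077).

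**Figure D3:**
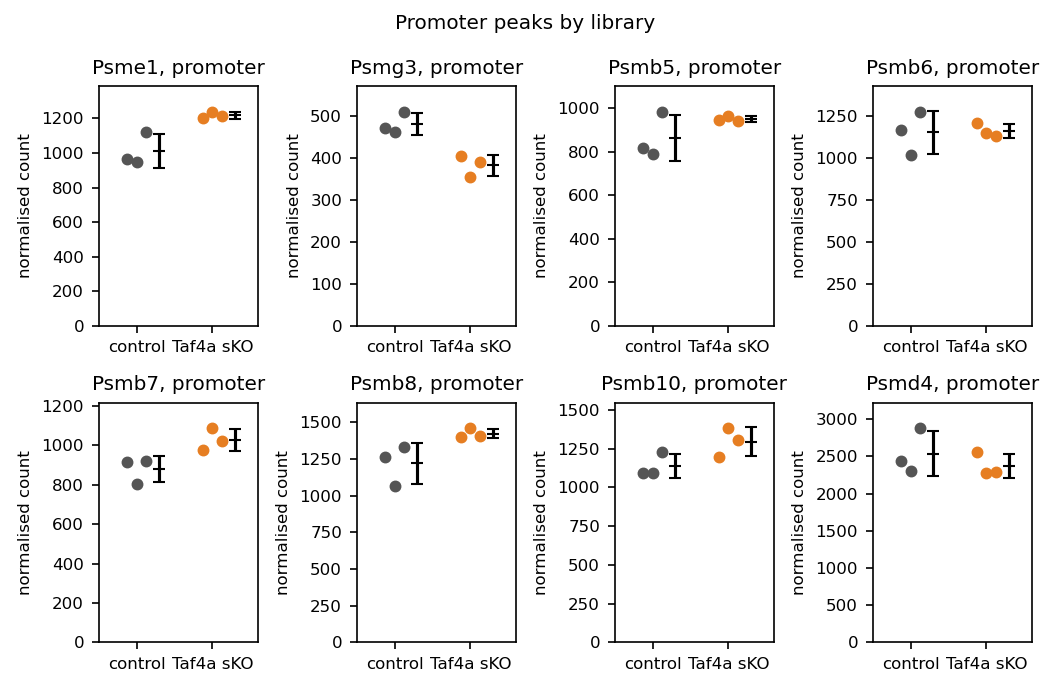
Normalised counts (y axis, from 0) of 8 promoter peaks in each control and Taf4a sKO library, with the mean and SD (n = 3) beside the points. The groups are separate for Psme1, Psmg3, Psmb7 and Psmb8 and overlap for Psmb5, Psmb6, Psmb10 and Psmd4.

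In the regulatory particle, 4 promoter peaks of ATPase genes and 11 of other subunits were tested and 0 were called by limma. The ATPase promoters had log2 changes from 0.01 to 0.13. The promoter of Psmd4 (chr3:95042149-95043254) had 2435, 2304 and 2880 in control and 2560, 2272 and 2288 in Taf4a sKO libraries, with overlap (log2 change -0.09, limma adjusted p = 0.52). Under TMM factors it was called lower, at -0.20 (limma adjusted p = 0.0031). The promoter of Psmd14 (chr2:61711263-61712175), for the deubiquitinase of the lid, had 1769, 1556 and 2029 in control and 2011, 1739 and 1689 in Taf4a sKO libraries. Its Taf4a sKO values lay inside the control range (log2 change 0.03, interval -0.21 to 0.26, limma adjusted p = 0.87). The promoter of Psmd2 (chr16:20651179-20652134), for a scaffold subunit of the base, had 1373, 1243 and 1450 in control and 1350, 1409 and 1424 in Taf4a sKO libraries (log2 change 0.04, limma adjusted p = 0.77).

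Of the activators, Psme1 (chr14:55577912-55578931), an interferon-inducible subunit of the gate-opening ring, had 964, 947 and 1123 in control and 1202, 1239 and 1213 in Taf4a sKO libraries. Every Taf4a sKO value was above every control value, a rise of 0.27 on the log2 scale (standard error 0.11, limma adjusted p = 0.045). The rise was 0.16 with TMM factors (adjusted p = 0.042). Psme1 was no longer called with quantile normalization (0.09, limma adjusted p = 0.22) or with the replicate block (adjusted p = 0.055). Its partner Psme2 had 4540, 4078 and 5037 in control and 5336, 4521 and 4460 in Taf4a sKO libraries, with overlap (log2 change 0.07, limma adjusted p = 0.64). Psme3 (chr11:101315639-101316957), the nuclear activator, had 1664, 1624 and 1760 against 1589, 1595 and 1621, each Taf4a sKO value just below each control value (log2 change -0.07, limma adjusted p = 0.61). Psme4 (chr11:30771368-30772697), a large single-chain activator, had 1944, 1923 and 2166 against 1869, 1859 and 1995, with overlap (log2 change -0.07, limma adjusted p = 0.59). Under TMM factors Psme3 and Psme4 were called lower, at -0.18 (adjusted p = 0.014) and -0.19 (adjusted p = 0.0096).

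The core assembly chaperone gene Psmg3 (chr5:139826433-139827043) had 471, 463 and 511 in control and 405, 356 and 390 in Taf4a sKO libraries. Every Taf4a sKO value was below every control value, a fall of 0.33 on the log2 scale (standard error 0.13, limma adjusted p = 0.042). The Psme1 and Psmg3 calls were both lost when any library other than control replicate 3 was left out, with adjusted p up to 0.18 for each. The inhibitor gene Psmf1 had no peak within the promoter limit, and its peak over a start site 3022 bp into the annotated gene (chr2:151740721-151741608) had 420, 400 and 484 in control and 365, 362 and 383 in Taf4a sKO libraries. These did not overlap, and the difference did not pass with the deposited scaling (log2 change -0.23, limma adjusted p = 0.17). It was called lower with TMM factors (-0.34, adjusted p = 0.0092) and with quantile normalization (-0.45, adjusted p = 0.0017).

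Several proteasome genes share a start region with a neighbour, and 9 peaks over a start site of a proteasome gene carried another gene name, a pseudogene or no gene in the table. They lie outside the members, and 0 of the 9 were called by limma, where 15.7% of protein-coding promoter peaks were. Their log2 changes ran from -0.11 to 0.25. The peak annotated to the peptide transporter gene Tap1 and lying over the start of Psmb9 (chr17:34186948-34188241) had 2202, 1921 and 2316 in control and 2641, 2502 and 2491 in Taf4a sKO libraries, without overlap (log2 change 0.25, limma adjusted p = 0.053, and 0.14 with adjusted p = 0.029 under TMM factors). The start of Psma7 lay in a peak annotated to Ss18l1 (log2 change 0.10), that of Psmc5 in a peak of Ftsj3 (-0.01), that of Psmd5 in a peak of Cutal (0.11) and that of Psmg2 in a peak of Cep76 (0.12). A start of Psmc2 lay in a peak of Dnajc2, with a log2 change of -0.11 (limma adjusted p = 0.45) that was called lower with TMM factors (-0.22, adjusted p = 0.018). A start of Psmb1 also lay in a peak of Tbp, the gene of the TATA-binding protein (-0.03). Of the 50 proteasome-type genes in GENCODE vM21, 43 had an annotated peak, those 5 (Psma7, Psmb9, Psmc5, Psmd5 and Psmg2) had only a peak with another gene name over a start, and Psma8, the testis-type alpha subunit, and Psme2b had no peak over a start site. Psme3ip1 has another symbol in that annotation and is not among the 50.

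The 25 distal peaks were weaker, with a median mean value of 164 and a median width of 420 bp, and their values varied more between replicates (median coefficient of variation 12.9% in control and 10.3% in Taf4a sKO libraries). Of them 3 were called higher and 8 lower, against 26.0% and 14.0% of the 11304 distal peaks of protein-coding genes. With TMM factors 3 were called higher and 13 lower, against 23.7% and 23.7%. In 3 of the 25 every Taf4a sKO value was above every control value and in 10 below, against 30.2% and 19.3%. The median log2 change was -0.23, beside 0.08 over all distal peaks of protein-coding genes, and under TMM factors these were -0.34 and -0.04. Over all 63 members the median log2 change was 0.04, beside 0.11 over all peaks. It was -0.02 without control replicate 2, 0.10 without control replicate 3, 0.01 without Taf4a sKO replicate 1 and 0.07 without Taf4a sKO replicate 3, beside medians over all peaks of 0.05, 0.17, 0.08 and 0.11. With TMM factors the counts over the 63 were 5 higher and 18 lower, where 25.4% and 22.3% of all peaks were called. With quantile normalization they were 4 higher and 24 lower, where 24.8% and 25.1% of all peaks were called. All 13 calls were kept in the same direction under TMM factors, and 12 of 13 under quantile normalization, where the Psme1 promoter was lost (log2 change 0.09, limma adjusted p = 0.22). The members include 4 distal peaks that hold a start site of their own gene, at Psmb1, Psmb11, Psmc2 and Psmf1, and 0 of these 4 were called by limma with the deposited scaling, in which all 11 called distal peaks lay away from the start sites of their genes. With TMM factors 3 of the 4 were called lower, Psmb1 at -0.19 (limma adjusted p = 0.049), Psmb11 at -0.44 (adjusted p = 0.010) and Psmf1 at -0.34 (adjusted p = 0.0092).

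**Figure D4:**
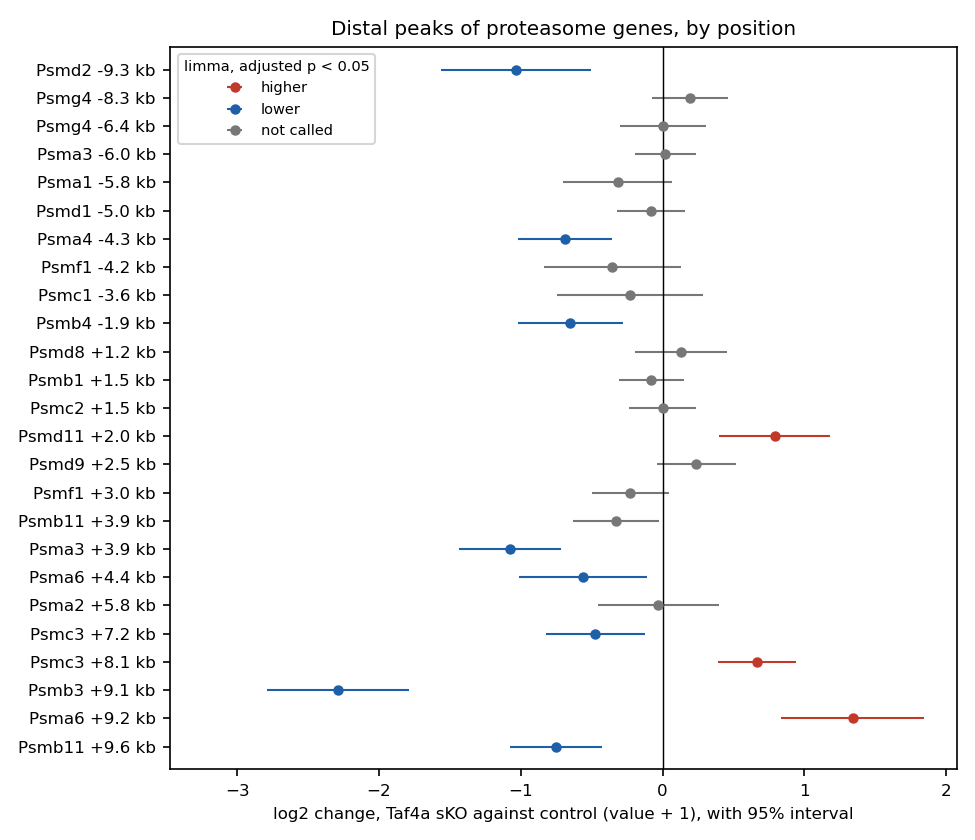
Log2 change between Taf4a sKO and control MuSCs (x axis) with 95% intervals from limma for the 25 distal peaks, ordered by distance of the peak centre from the annotated start site in kb (y axis; negative is upstream). The called peaks are 3 higher and 8 lower, with Psmb3 farthest to the left at -2.29 and Psma6 farthest to the right at 1.34.

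By the fold threshold 1 member peak was gained and 3 were lost, where 7.02% and 5.36% of all peaks, and 5.34% and 4.59% of distal peaks of protein-coding genes, passed. Without control replicate 3 the number lost was 1. In the whole table, leaving it out moved the gained peaks from 5294 to 7352 and the lost peaks from 4039 to 3653. The sequences of these 4 peaks are shown from the plus strand of GRCm38, as the central 300 bases or the whole peak of 298 bases, because they carry the largest differences of the set. Capitals mark the same motifs as above.
Psmb3 peak centre, chr11:97712340-97712639: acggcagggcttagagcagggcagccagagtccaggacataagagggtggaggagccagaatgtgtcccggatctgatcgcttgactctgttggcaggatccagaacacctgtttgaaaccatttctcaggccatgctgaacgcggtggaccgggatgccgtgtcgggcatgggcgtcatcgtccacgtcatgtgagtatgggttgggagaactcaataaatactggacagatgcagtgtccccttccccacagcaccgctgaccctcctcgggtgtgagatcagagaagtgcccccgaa
Psma3 peak centre, chr12:70978392-70978691: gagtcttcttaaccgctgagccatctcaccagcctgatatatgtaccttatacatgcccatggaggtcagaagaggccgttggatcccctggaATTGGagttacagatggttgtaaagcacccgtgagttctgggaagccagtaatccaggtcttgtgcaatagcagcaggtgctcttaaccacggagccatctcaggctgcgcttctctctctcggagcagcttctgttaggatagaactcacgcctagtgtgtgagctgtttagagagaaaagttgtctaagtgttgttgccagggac
Psma6 peak centre, chr12:55393238-55393537: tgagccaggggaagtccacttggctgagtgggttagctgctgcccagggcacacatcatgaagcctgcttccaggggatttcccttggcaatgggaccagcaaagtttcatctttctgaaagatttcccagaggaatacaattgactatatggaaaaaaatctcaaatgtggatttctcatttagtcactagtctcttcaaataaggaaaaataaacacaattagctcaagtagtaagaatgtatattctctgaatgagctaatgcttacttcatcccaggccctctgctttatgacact
Psmd2 whole peak, chr16:20642187-20642484: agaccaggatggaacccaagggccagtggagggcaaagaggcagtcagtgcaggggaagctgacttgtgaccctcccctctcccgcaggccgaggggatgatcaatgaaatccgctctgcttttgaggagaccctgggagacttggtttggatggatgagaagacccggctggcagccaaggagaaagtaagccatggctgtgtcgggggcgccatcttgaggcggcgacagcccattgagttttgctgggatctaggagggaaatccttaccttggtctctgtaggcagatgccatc
Only the Psma3 window matched a motif, 1 CCAAT, a sequence found in the central 300 bases of 32.2% of all peaks and of 10 of the 25 distal member peaks. The antioxidant response core was not among the letters of the 25 distal windows, against 15.3% of all peaks.

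The peak over a coding exon of Psmb3, 9090 bp downstream of its start (chr11:97712314-97712665), had 132, 113 and 153 in control and 37, 21 and 23 in Taf4a sKO libraries. The highest Taf4a sKO value was far below the lowest control value, and the peak fell by 2.29 on the log2 scale (standard error 0.24, limma adjusted p = 1.5e-07). The Psmb3 promoter had 2676, 2243 and 2769 in control and 2946, 2575 and 2548 in Taf4a sKO libraries, with overlap (log2 change 0.07, limma adjusted p = 0.62).

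In an intron of Psma3, 3920 bp downstream of the start (chr12:70978367-70978716), the values were 325, 282 and 466 in control and 179, 174 and 145 in Taf4a sKO libraries. The groups were separate, and the peak fell by 1.08 on the log2 scale (standard error 0.17, limma adjusted p = 3.9e-05). A peak 6029 bp upstream of Psma3 had a mean value of 1762 and a log2 change of 0.02, and the Psma3 promoter one of 0.19 (adjusted p = 0.16).

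Psma6 had peaks in an intron that went in opposite directions. At 9165 bp from the annotated start (chr12:55393204-55393570) the values were 47, 44 and 25 in control and 85, 97 and 107 in Taf4a sKO libraries, separate and higher by 1.34 on the log2 scale (standard error 0.24, limma adjusted p = 1.2e-04). At 4394 bp (chr12:55388410-55388823) they were 139, 122 and 95 in control and 90, 56 and 98 in Taf4a sKO libraries, which overlapped, with a log2 change of -0.56 (limma adjusted p = 0.042) that was lost without control replicate 1 or 2 or Taf4a sKO replicate 2. RefSeq gives Psma6 a second start, and the peak over it (chr12:55398242-55399262), annotated to a pseudogene, had a mean value of 1739 and a log2 change of 0.03 (adjusted p = 0.85). The gained peak lay 5438 bp upstream of that second start.

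The peak 9317 bp upstream of Psmd2 (chr16:20642187-20642484) lay over a coding exon of Ece2, an endothelin-processing enzyme gene. It had 54, 69 and 83 in control and 26, 33 and 40 in Taf4a sKO libraries, separate and lower by 1.03 on the log2 scale (log2 change -1.03, limma adjusted p = 0.0022).

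**Figure D5:**
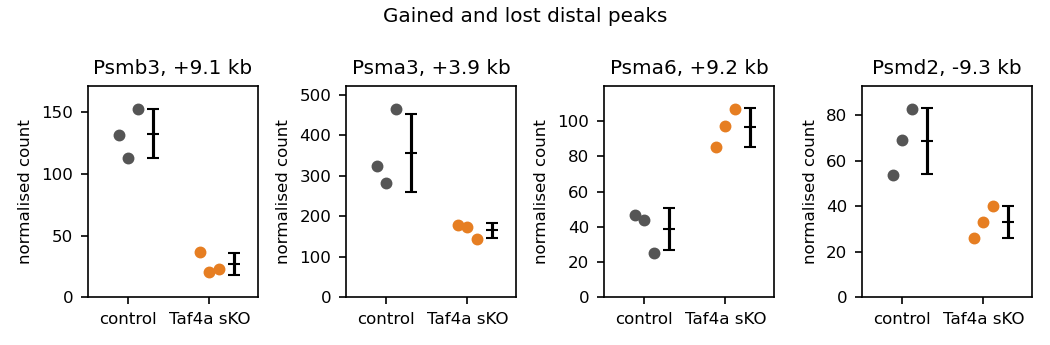
Normalised counts (y axis, from 0) of the 3 lost peaks and the 1 gained peak in each control and Taf4a sKO library, with the mean and SD (n = 3) beside the points. In all 4 panels the groups are separate.

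The other called distal peaks changed by less. Within Psmc3, an ATPase gene, the peak at 8073 bp (chr2:91061768-91062396), over an untranslated region where Psmc3 and the zinc transporter gene Slc39a13 overlap, had 556, 510 and 588 in control and 1096, 762 and 799 in Taf4a sKO libraries. It rose by 0.67 on the log2 scale (limma adjusted p = 3.6e-04). The neighbouring intronic peak at 7203 bp (chr2:91061097-91061327) had 146, 132 and 166 in control and 112, 99 and 107 in Taf4a sKO libraries, and it fell by 0.47 (adjusted p = 0.028). That call was lost without control replicate 1 or 3 or Taf4a sKO replicate 2 or 3. The 2 peaks of the same gene thus moved in opposite directions while its promoter had a log2 change of 0.01.

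The intronic peak of the regulatory particle gene Psmd11, 1996 bp from its start (chr11:80430530-80430692), had 61, 78 and 87 in control and 124, 136 and 129 in Taf4a sKO libraries. It rose by 0.79 on the log2 scale (limma adjusted p = 0.0016). Its promoter had a log2 change of 0.19 (adjusted p = 0.14).

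The intergenic peak 9624 bp from the Psmb11 start (chr14:54630607-54631507) had 207, 206 and 186 in control and 115, 122 and 117 in Taf4a sKO libraries, a fall of 0.75 on the log2 scale (limma adjusted p = 4.8e-04). Upstream of Psma4 by 4310 bp, a peak over a coding exon of the kinase gene Hykk (chr9:54946271-54946690) had 497, 475 and 355 in control and 329, 225 and 271 in Taf4a sKO libraries, a fall of 0.69 (adjusted p = 0.0016). Upstream of Psmb4 by 1892 bp, an intergenic peak (chr3:94888725-94888982) had 183, 136 and 219 in control and 119, 112 and 105 in Taf4a sKO libraries, a fall of 0.65 (adjusted p = 0.0055). In these 3 peaks the genotypes did not overlap, and the promoters of Psma4 and Psmb4 had log2 changes of 0.03 and 0.09.

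Further lists set the proteasome genes beside their partners and regulators. Of 8 partner genes, which encode proteins that join or assemble the proteasome, 7 had a peak (not Paaf1). Of the 7 peaks, 6 of them promoter peaks, 1 was called, higher. For comparison, 28.0% of all peaks and 10% of protein-coding promoter peaks were called higher. The called peak was the promoter of Akirin2, whose product carries proteasomes into the nucleus. Its values were 2572, 2468 and 2886 in control and 3307, 3301 and 3328 in Taf4a sKO libraries, without overlap (log2 change 0.33, limma adjusted p = 0.0094). The 14 regulator genes, which encode transcription factors of proteasome genes and proteins that act on them, had 27 peaks, of which 9 were called higher and 1 lower (28.0% and 13.9% of all peaks). Their median log2 change was 0.16. Leaving out a library moved the number called in the partner and regulator lists together from 11 to between 6 (without control replicate 1) and 17 (without control replicate 3), with 7 without Taf4a sKO replicate 3. The calls in the whole table moved too, from 21102 higher and 10476 lower. They were 18058 and 10038 without control replicate 1, 28502 and 9731 without control replicate 3, and 17806 and 8750 without Taf4a sKO replicate 3.

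Nfe2l1, the activator of proteasome genes when proteolysis falls short, had a lost peak 7526 bp from its start (chr11:96837202-96837786), with 552, 432 and 601 in control and 266, 227 and 214 in Taf4a sKO libraries. The groups were separate (log2 change -1.15, limma adjusted p = 1.7e-06). Its promoter peak, with a mean of 3691, was not called (log2 change 0.08, adjusted p = 0.55), nor was a peak at 5612 bp (0.34, adjusted p = 0.061). A peak 6346 bp from the start of Nfe2l2, its antioxidant-response relative, had 108, 105 and 117 in control and 203, 211 and 225 in Taf4a sKO libraries (log2 change 0.95, adjusted p = 4.3e-05). A peak of Mafk, a small Maf partner of both factors, 3631 bp from its start had 1131, 1126 and 1412 in control and 2408, 2171 and 2344 in Taf4a sKO libraries (log2 change 0.92, adjusted p = 6.4e-07). Every value of one genotype was above every value of the other in the Nfe2l2 and Mafk peaks. The promoter peaks of Nfe2l2 (log2 change 0.06), Mafk (0.11) and Irf1 (0.07) were not called, and under TMM factors these values were -0.05, -0.01 and -0.04. Of the 13 promoter peaks of the regulator list, 3 were called higher and 0 lower, against 10% and 5.67% of protein-coding promoter peaks. The called ones were at Keap1 (log2 change 0.31, limma adjusted p = 0.019), Ddi2 (0.27, adjusted p = 0.038) and Nlrc5, described below.

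Among the regulators of the immunoproteasome and antigen presentation, a peak of Irf1 8176 bp from its start was gained. It had 721, 637 and 769 in control and 1590, 1418 and 1271 in Taf4a sKO libraries (log2 change 1.01, limma adjusted p = 4.2e-07). Its log2 ratio of means, 1.007, was just past the threshold of 1, and its log2 change was 0.89 with TMM factors (adjusted p = 2.1e-06). For Nlrc5, the activator of MHC class I genes, the promoter had 415, 428 and 527 in control and 687, 623 and 657 in Taf4a sKO libraries (log2 change 0.53, adjusted p = 0.0018). A second Nlrc5 peak 6174 bp from the start was gained, with 28, 40 and 57 in control and 101, 143 and 115 in Taf4a sKO libraries (log2 change 1.54, adjusted p = 2.8e-05). In all 3 peaks the genotypes were separate, while the promoter peaks of Psmb8 and Psmb10, described above, were not called.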

How the data were processed

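ATAC-seq of freshly isolated MuSCs was measured in 3 control and 3 Taf4a sKO libraries, grouped by the sample labels. The authors trimmed reads with Trimmomatic 0.39, aligned them with STAR 2.7.11b to mm10, removed duplicates with Picard 3.1.1 and also spliced, multi-mapping, ribosomal and mitochondrial reads, called peaks per sample with MACS without input, unified the peaks and counted reads with featureCounts. No correction of read positions for Tn5 is described, which can move a peak edge by a few bases. The deposited values are a score: counts multiplied by a depth factor and rounded by the authors, so they are not raw counts and no count model was used. Peaks carry the name of the nearest gene within the authors' window.

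Peaks were tested on log2(value + 1) with limma 3.58.1 in R 4.3.3 (trended and robust variance moderation, 2-sided), and p-values were adjusted by the Benjamini-Hochberg method over 75384 peaks whose mean exceeded 10. With 3 libraries a genotype the precision is limited. The script was tested on simulated data. Features came from GENCODE vM21, in which 99.1% of annotated peak genes had the same coordinates, and promoter sequences from RefSeq (GRCm38.p6), which covered 43 of the proteasome gene symbols. Genes named in the text were every called, gained or lost member peak, the peak nearest the start of 14 catalytic, immunoproteasome, activator, inhibitor and regulatory particle genes, and the highest and lowest promoters. Of the other lists called or past-threshold peaks are named, up to 6 a list by p. Other genes and peaks, such as those listed by motif or shared start, the uncalled peaks of Nfe2l1, Nfe2l2, Mafk, Irf1 and Tap1, and the called promoters of Keap1 and Ddi2, were named after their values were seen. Members and lists were chosen with earlier results of these data known. Alternatives covered the scaling (TMM, median of ratios, quantile), the pseudocount, the minimum mean, the threshold, the annotation, the replicate block and each library left out. No per-sample column was left unused. Results for some listed genes are not reported here.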

Additional observations from a re-analysis of the deposited data

How the results depend on the processing

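Of 126 values under alternatives for the counts, medians and the Taf4 exon 12 peak, 106 stayed within the limits set for them and 20 moved. The number of proteasome gene peaks called lower, 9 with the deposited scaling, rose to 18 under TMM, 18 under median-of-ratios factors and 24 under quantile normalization, while the peaks called lower in the whole table went from 10476 to 16803, 16943 and 18894. Under these 3 scalings the median log2 change over all members went from 0.043 to -0.0682, -0.0695 and -0.112, and over promoter peaks from 0.076 to -0.0354, -0.0367 and -0.0643. These scalings moved the median of all peaks from 0.11 to -0.01, -0.01 and -0.02. Leaving out a library gave 3 to 20 peaks higher, 6 to 8 lower and 1 to 3 lost, 1 gained each time (16024 to 28502 higher and 8565 to 10038 lower in the whole table), medians from -0.0205 to 0.104 over all members and from 0.0043 to 0.141 over promoter peaks, 6 to 17 called in the partner and regulator lists, and a log2 change of the Taf4 exon 12 peak between -1.87 and -1.27, called each time. With the reference annotation, which takes peaks centred within 1000 bp of a start, 1 peak was higher, 1 lower, 0 gained and 0 lost, since distal peaks are left out by construction. With a fold of 1.5 there were 3 gained and 6 lost, and the share of all peaks past that fold was not counted. Leaving out Psmc3ip, or Psmc3ip and Psme3ip1 (chosen after seeing the data), a pseudocount of 5, a minimum mean of 50 or none kept each of these results within its limits.

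For single peaks, TMM, median-of-ratios and quantile scaling turned the uncalled log2 changes of Psmb6 (-0.0954, -0.0967 and -0.163), Psmd14 (-0.0848, -0.0860 and -0.113), Psmd2 (-0.0682, -0.0695 and -0.110) and Psme2 (-0.0430, -0.0442 and -0.0246) below 0, and quantile normalization that of Psmb5 (-0.0620). Under quantile normalization Psmb6 passed as lower and Psme1 was no longer called (0.0883, limma adjusted p = 0.22), and under all 3 scalings the Psmf1 start peak was called lower (-0.339, -0.340 and -0.446). Leaving out a library moved the uncalled values across 0 for Psmb6 (-0.0696 to 0.0913), Psmd14 (-0.0677 to 0.124), Psmd2 (-0.0175 to 0.0935), Psme2 (-0.0142 to 0.145) and Psmd4 (-0.160 to 0.0007). The cause was not tested.

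The correlations of deviations from the genotype mean were 0.11, -0.12 and -0.03 for same-numbered libraries. For differently numbered libraries of the 2 genotypes they ran from -0.12 to 0.15. With 3 libraries a genotype these values cannot decide whether same-numbered libraries were paired. With the replicate block the members had 3 higher and 9 lower calls, in place of 4 and 9. The whole table had 21944 higher and 11004 lower with the block, in place of 21102 and 10476. Psme1 was no longer called with the block (log2 change 0.27, limma adjusted p = 0.055).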

Other observations

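Of 5 antigen processing genes, which act on the peptides that the immunoproteasome makes, 4 had a peak (not Tapbp), and 2 of 5 peaks were called higher by limma, against 28.0% of all peaks. Both belong to the peptide transporter gene Tap2. The peak 1638 bp from its start had 935, 845 and 904 in control and 1120, 1132 and 1183 in Taf4a sKO libraries (log2 change 0.36, limma adjusted p = 0.0087). The peak 7277 bp from its start had 599, 573 and 442 in control and 962, 681 and 1101 in Taf4a sKO libraries (log2 change 0.75, adjusted p = 0.0017). In both the genotypes were separate.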
